A study of Homo sapiens with 8 samples.

Results

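The 23937 peaks described here are the regions that an antibody against N6-methyladenosine (m6A) still enriched from the chromatin RNA of METTL3-knockout HEK293T cells, a human embryonic kidney line. They are every peak of the deposited knockout list, in which m6A immunoprecipitates (IP, 2 libraries) of METTL3-/- cells were compared with input RNA of the same cells (2 libraries). The list makes up 23937 of the 53021 peaks deposited for the series. The other 29084 were called for the parental, wild-type cells, from 2 IP and 2 input libraries. The 4 groups differ in genotype (wild type or METTL3-/-) and in whether the RNA went through the antibody. All were grown in the same medium with serum and antibiotics, with no treatment named. In every group RNA was taken from the chromosome fraction, treated with DNase, depleted of ribosomal RNA and made into stranded libraries. The labels do not say whether the knockout is 1 clone. Replicates are named only by number, and each list combines both replicates of its genotype, so no value below has a spread between libraries. The 95% intervals are exact Clopper-Pearson intervals and cover counting error only, and values of the 2 lists are set side by side without a test.

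m6A is a methyl mark on adenosines of messenger and noncoding RNA. METTL3 is the catalytic subunit of the writer complex, which it forms with METTL14, WTAP and further partners, and which places the mark mostly within short motifs built around GGAC. Reader proteins of the YTH family bind the mark, and the demethylases FTO and ALKBH5 can remove it. Other enzymes place the mark on a few sites such as cap-adjacent adenosines, antibodies against m6A can also recover some unmethylated RNA, and a line without METTL3 is a common reference for both. Which of these lies behind any peak was not tested. RNA attached to chromatin is rich in unfinished transcripts that still hold their introns, and in noncoding RNA that stays in the nucleus.

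The gene METTL3 itself (13.2 kb, chromosome 14) held 0 knockout peaks and 2 wild-type peaks. A peak list does not measure a gene's RNA level and these values are no check of the knockout. In bulk RNA, fewer cells of a type and less RNA per cell cannot be told apart. How deeply any library was sequenced is not known. Of 4 neural genes that HEK293T cells are known to express, NEFL, a neurofilament gene, held 1 knockout peak. None of the 16 kidney epithelium, liver, muscle and endothelium markers held one. In the wild-type list NEFL and INA held peaks, as did PAX2, PAX8, ACTN2 and TTN among the 16. Over all coding genes 35.1% held a knockout peak. Each list has 4 genes and the interval for 0 of 4 reaches 60.2%, so these counts mark no cell type.

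The sequences that can be shown are those of annotated gene starts, because RefSeq windows of 300 bases (250 before a start and 50 from it on, GRCh38.p14) were at hand for 27305 genes. Of the knockout peaks, 308 overlapped such a window, 215 on the strand of the gene and 93 only on the opposite strand. The start base itself lay under 125 of the peaks on the gene's strand, and the summit of these was a median of 59 bases past the start. In 97 of the 125 the summit lay downstream of the start. The 5 with the highest fold enrichment of IP over input are printed 5′ to 3′ along the gene, with the bases that the peak covers in capitals.
LOC101928032, chrX:1359426-1359725 (-): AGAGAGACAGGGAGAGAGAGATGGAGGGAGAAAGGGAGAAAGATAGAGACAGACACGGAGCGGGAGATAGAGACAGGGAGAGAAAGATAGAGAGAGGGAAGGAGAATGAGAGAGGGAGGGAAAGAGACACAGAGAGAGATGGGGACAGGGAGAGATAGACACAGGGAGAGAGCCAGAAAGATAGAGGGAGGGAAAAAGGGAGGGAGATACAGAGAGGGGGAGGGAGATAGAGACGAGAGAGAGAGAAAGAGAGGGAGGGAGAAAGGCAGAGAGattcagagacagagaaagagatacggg
KIRREL1-IT1, chr1:158025300-158025599 (+): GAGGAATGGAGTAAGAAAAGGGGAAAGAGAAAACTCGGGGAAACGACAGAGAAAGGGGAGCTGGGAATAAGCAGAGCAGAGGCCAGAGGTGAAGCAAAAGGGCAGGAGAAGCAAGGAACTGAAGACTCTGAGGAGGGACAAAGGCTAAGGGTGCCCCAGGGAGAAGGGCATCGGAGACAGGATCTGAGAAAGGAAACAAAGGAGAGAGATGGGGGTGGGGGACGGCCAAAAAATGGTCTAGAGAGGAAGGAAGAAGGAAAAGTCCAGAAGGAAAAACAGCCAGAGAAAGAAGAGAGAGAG
PRKAR1A, chr17:68511750-68512049 (+): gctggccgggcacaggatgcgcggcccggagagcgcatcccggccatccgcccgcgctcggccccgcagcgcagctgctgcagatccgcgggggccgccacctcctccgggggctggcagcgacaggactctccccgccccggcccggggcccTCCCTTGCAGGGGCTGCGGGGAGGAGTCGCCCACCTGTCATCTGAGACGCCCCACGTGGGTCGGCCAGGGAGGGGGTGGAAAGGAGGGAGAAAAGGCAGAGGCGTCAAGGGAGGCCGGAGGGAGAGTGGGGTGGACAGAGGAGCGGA
LOC124904001, chr17:40121791-40122090 (-): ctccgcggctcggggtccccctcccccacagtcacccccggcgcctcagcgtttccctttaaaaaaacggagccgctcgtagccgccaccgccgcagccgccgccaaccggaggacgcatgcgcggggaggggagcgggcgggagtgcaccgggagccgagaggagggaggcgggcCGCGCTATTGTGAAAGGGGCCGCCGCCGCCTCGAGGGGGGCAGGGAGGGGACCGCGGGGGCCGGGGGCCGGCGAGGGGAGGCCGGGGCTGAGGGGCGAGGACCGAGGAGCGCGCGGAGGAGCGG
MEF2C, chr5:88823878-88824177 (-): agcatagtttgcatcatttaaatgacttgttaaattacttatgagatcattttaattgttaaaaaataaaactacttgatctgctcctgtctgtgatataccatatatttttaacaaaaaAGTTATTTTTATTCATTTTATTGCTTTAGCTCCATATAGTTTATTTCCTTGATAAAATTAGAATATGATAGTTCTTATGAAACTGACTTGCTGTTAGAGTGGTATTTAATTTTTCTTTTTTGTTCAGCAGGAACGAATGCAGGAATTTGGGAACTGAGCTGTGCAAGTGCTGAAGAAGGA
The first is the start of a long noncoding gene inside IL3RA, under a peak of 20.9-fold and 1128 bp whose summit was at base -659 counted from the start. It lies in the region shared by the X and Y chromosomes, and the list gives its X coordinates. KIRREL1-IT1, an intronic noncoding transcript of KIRREL1, lay wholly under a peak of 20.8-fold. PRKAR1A, the regulatory subunit of protein kinase A, had a peak of 19.2-fold with its summit 69 bases past the start. LOC124904001, another noncoding gene, reached 17.6-fold and MEF2C, a transcription factor of muscle and neurons, 16.8-fold.

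The stretches under these peaks differed in base composition. Purines (A or G) made up 90.5% of the covered bases at LOC101928032, 81.7% at KIRREL1-IT1, 69.4% at PRKAR1A and 70.2% at LOC124904001. MEF2C stood apart with 48.3%, in a window with 28.7% G or C. Purine content was then measured over all gene-start windows with at least 50 bases under a peak, a measure chosen after the sequences were seen. Read along the strand of the peak, the covered bases held a median of 58.2% purine in the 137 knockout peaks on the gene's strand, with quartiles of 53.8% and 63.3%. The 104 knockout peaks on the opposite strand, read along their own strand, had a median of 58.4%. Each peak was counted once, at the window it covered most. A peak counted as opposite could therefore also overlap a window of a gene on its own strand. Over all 35097 windows the median was 50.3% on the gene's strand and 49.7% on the other. Covered stretches with at least 60% purine made up 44.5% of the knockout peaks on the gene's strand and 45.2% of those on the opposite strand, against 6.33% and 4.74% of all windows. Covered stretches are shorter than a window, and among the last 150 bases of all windows 12.3% reached 60%. In the wild-type list the medians were 56.0% and 57.8%, over 248 and 133 peaks. Both lists thus held purine-rich stretches on the strand of the peak, whichever strand the gene of the most covered window was on. Of the motifs of the writer complex, GGAC was present on at least 1 strand in 90.8% of the 228 windows with a knockout peak on the gene's strand and in 87.4% of all windows. GGACT, which contains GGAC, was present in 114 of the 228 and in 44.2% of all. On the gene's strand alone GGAC was present in 79.4% and 66.3%, and GGACT in 35.5% and 25.3%. A match says only that the letters are in the window.

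Of the peaks, 5 overlapped 9 microRNA genes, and both peaks that lay on a microRNA's own strand are shown by the mature sequences they cover, with the seed (bases 2 to 8) in capitals.
hsa-miR-941: cACCCGGCugugugcacaugugc
hsa-miR-3074-3p: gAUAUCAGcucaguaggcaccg
The first lay at chr20:63919526-63920143 on the plus strand, with 4.84-fold enrichment, inside DNAJC5, a chaperone gene of synaptic vesicles. It covers the hairpins of MIR941-3, MIR941-4 and MIR941-5 and the mature part of MIR941-2, which all carry the same mature microRNA. The second lay at chr9:95085826-95086048 on the minus strand, with 6.64-fold enrichment, inside AOPEP, an aminopeptidase gene, and on the strand opposite to MIR24-1. The other 3 lay on the strand opposite to MIR4273, MIR4670 and MIR1260B, with folds of 5.44, 4.51 and 6.85. The copies of miR-941 are near-identical, so a read cannot be placed in one of them with certainty.

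Knockout peaks were short. Their median width was 209 bp, with an upper quartile of 275 bp and a maximum of 2565 bp. The smallest width in the list, 200 bp, was the width of 8430 peaks, 35.2% (34.6 to 35.8) of the list, and 3.02% were 500 bp or wider. In the wild-type list the median was 204 bp and 40.7% (40.2 to 41.3) had the minimum width. Fold enrichment, the authors' value for each peak, had a median of 7.06 with quartiles of 5.82 and 8.81 and a maximum of 49.6. The caller's significance, as −log10 q, ran from 2.02 to 332 with a median of 9.05. Width moved with significance. Of the 6047 peaks up to the lower quartile of −log10 q (6.46), 68.0% had the minimum width, and of the 5979 above the upper quartile (13.7), 3.29%. The same fold recurred in many peaks: the most frequent value, 7.06, was given to 471 peaks, and the 10 most frequent values made up 11.2% of the list. Peaks of minimum width had a median fold of 6.52, those wider than 200 but under 300 bp 8.07, and the 31 peaks of 1000 bp or wider 9.44.

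**Figure D1:**
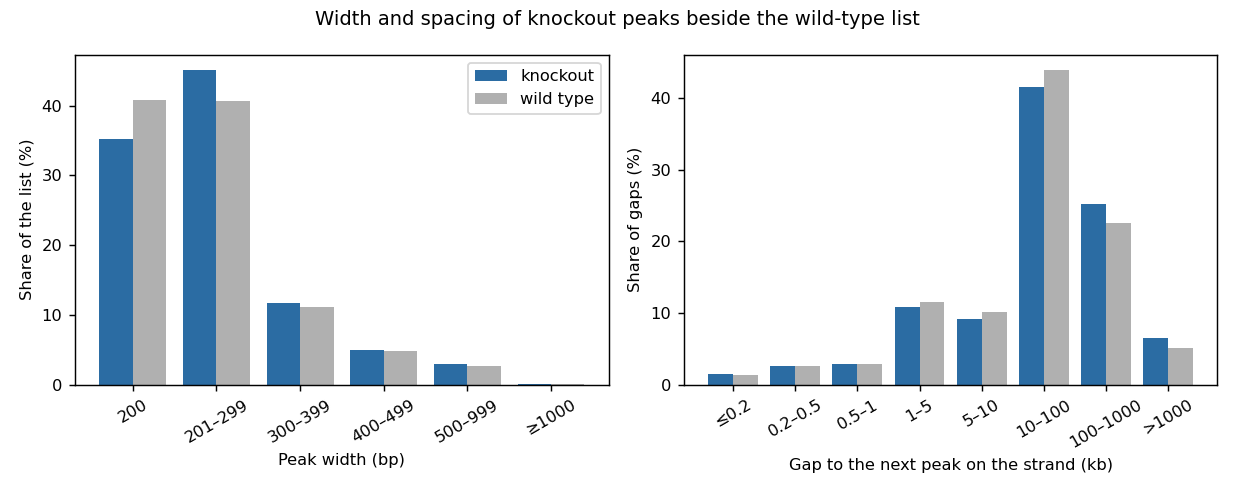
Share of peaks by width in bp (left) and share of gaps to the next peak on the same strand in kb (right), in percent of the knockout list (blue, 23937 peaks) and the wild-type list (grey, 29084 peaks). The bar at 200 bp is lower in the knockout (35.2% against 40.7%), and in both lists the most frequent gap class is 10 to 100 kb.

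Most peaks stood alone. The median gap to the next peak on the same strand was 35031 bp, and 41.5% of gaps lay between 10 and 100 kb. The smallest gap was 101 bp, and 12.7% (12.3 to 13.1) of peaks had a neighbour within 1 kb on their strand, against 12.7% (12.3 to 13.0) in the wild-type list. Joined across gaps of 1 kb or less, the peaks formed 20896 single peaks, 1170 pairs, 191 triplets and 30 longer runs. Peaks with such a neighbour had a median fold of 7.05 and a median width of 231 bp, and the others 7.06 and 207 bp.

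Of the 30 longer runs, 6 held 5 or 6 peaks. The run in GOLGA4, which encodes a tethering protein of the Golgi, had 6 peaks over 4267 bp on the gene's strand, with folds between 2.82 and 9.30. An equal number lay over 4034 bp of chromosome 5 (chr5:104137473-104141506, plus strand) outside all annotated genes, with folds between 5.17 and 9.04. Runs of 5 lay in ZNF518A, a zinc finger gene, in the pseudogene AGGF1P2, in MACF1, a linker of actin and microtubules, and in VCAN, the extracellular matrix proteoglycan versican. All 6 runs were on the plus strand. Whether a run falls in 1 exon was not read, since exon positions were not used here.

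A regular spacing appeared at DANT2, a noncoding gene on the X chromosome next to the DXZ4 tandem repeat. It is described here because of this pattern, seen in its values. On the plus strand 14 peaks stretched from chrX:115848975 to 115887126, with a median step of 2980 bp from start to start and steps between 2116 and 3012 bp. Their folds ran from 2.73 to 10.7. DANT2 is annotated on the minus strand, where it held 6 further peaks with uneven steps of 2230 to 20906 bp. The 14 plus-strand peaks lie on the strand of DANT1, a noncoding gene that overlaps DANT2. Units of a tandem array are near-identical, so the placement of reads among them is uncertain.

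By chromosome, density varied by 2.38 times between the highest and the lowest of chromosomes 1 to 22 and X, counted per Mb between the outermost annotated genes. Chromosome 19 had 14.4 knockout peaks per Mb (845 peaks), chromosome 14 had 10.97 and chromosome 17 had 10.1. Chromosome 8 (6.06 per Mb), 18 (6.09) and X (6.45) were at the low end. Densities per Mb of gene body were closer together, between 9.22 on chromosome 8 and 16.7 on chromosome 14. The wild-type list, which is longer, had the higher density on 22 of the 23 chromosomes, and chromosome 14 was the exception with 10.24 against 10.97. The genes with most knockout peaks were ZNF611 (8), CHAF1A (6) and LIPE-AS1 (6) on chromosome 19, and GPHN (61), RAD51B (24) and MIPOL1 (20) on chromosome 14. On chromosome 17 they were LRRC37A2 (29), BPTF (16) and CEP112 (12). On chromosome 8 they were VPS13B (20), NSMCE2 (17) and STK3 (14), on chromosome 18 MIR924HG (23), DLGAP1 (18) and DTNA (15), and on X ZC3H12B (43), DIAPH2 (30) and DANT2 (20). A further 94 peaks lay on 25 unplaced or unlocalised scaffolds.

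The plus strand of the genome held 13278 knockout peaks, 55.5% (54.8 to 56.1), against 53.3% (52.7 to 53.9) in wild type. The share was above 50% on 22 of 23 chromosomes, with the interval clear of 50% on 17. Chromosome 20 reached 62.1% (57.3 to 66.8), where PLCB1 (25 peaks), MACROD2 (13) and TASP1 (12) led, and chromosome 13 reached 61.6% (57.8 to 65.3), led by GPC6 (40), DLEU1 (21) and NBEA (20). Chromosome 19 had 48.5% (45.1 to 52.0). Plus-strand coding genes of known strand cover 555 Mb and minus-strand ones 505 Mb. Each strand holds about as many such genes, 8084 and 7758. Peaks on the gene's own strand numbered 7544 in plus-strand genes and 5317 in minus-strand genes.

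**Figure D2:**
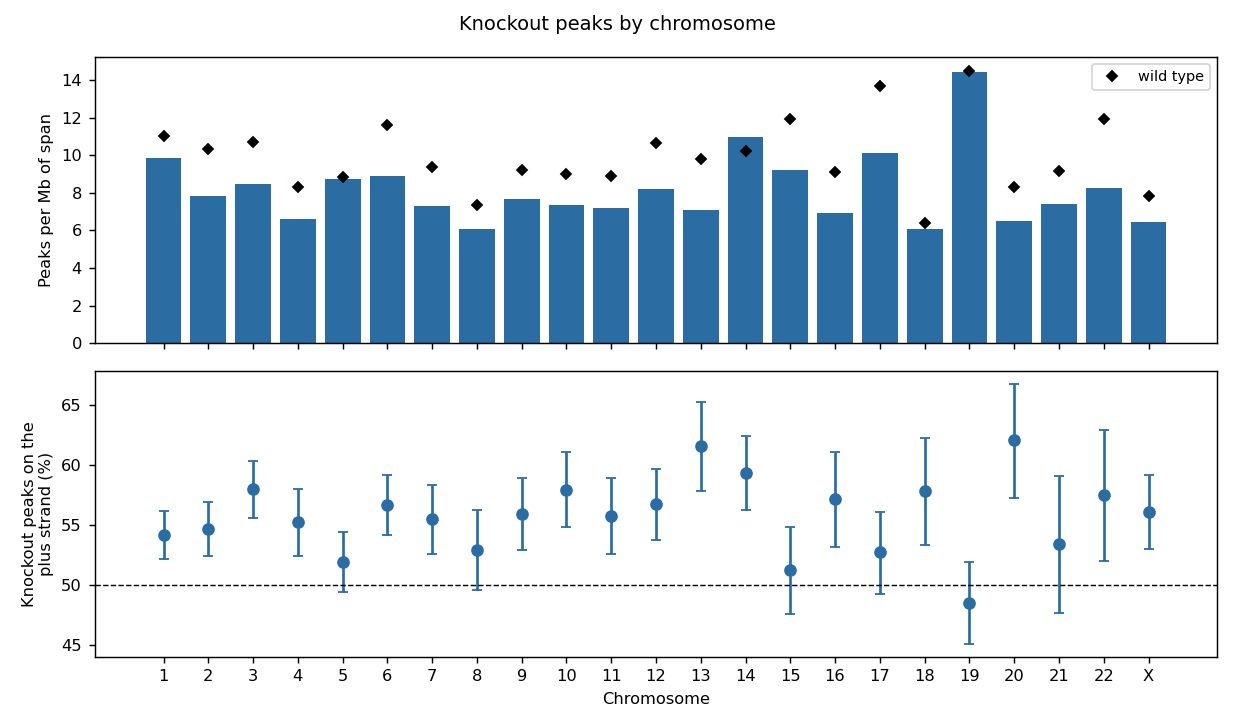
Knockout peaks per Mb between the outermost annotated genes of each chromosome (top, bars, wild type as diamonds) and the percentage of knockout peaks on the plus strand with its 95% Clopper-Pearson interval (bottom, dashed line at 50%). Chromosome 19 has the tallest bar, at 14.4 per Mb, and is the one chromosome with a plus-strand share below 50%.

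Some of the most significant peaks lay at the very ends of chromosomes, beyond the last annotated gene. They are singled out after their values were seen. Within the first 12 kb of 8 chromosomes (1, 3, 4, 5, 7, 10, 12 and 18) a knockout peak began between base 10002 and base 10120. All 8 were on the minus strand, with folds between 8.38 and 29.0. At the other end, 10 peaks lay past the last gene of 9 chromosomes (1, 2, 3, 10, 12, 13, 18, 22 and X), and all 10 were on the plus strand, with folds between 3.75 and 13.2. In these 18 peaks the strand runs towards the chromosome end. A further 3 peaks lay before the first gene but past the first 12 kb. Those on chromosomes 11 and 6 were on the minus strand (5.51-fold each), and the peak on X, at chrX:231771-231970, was on the plus strand, away from the end (5.82-fold). The peak at chr5:10026-11888 was 1863 bp wide with a −log10 q of 270, the next after the top peak of the list, and those past the last genes of X, 12 and 18 reached 221, 199.3 and 198.6. The wild-type list held 8 minus-strand peaks at the same 8 low-coordinate ends and 8 plus-strand peaks past the last gene of 8 chromosomes. TERRA, the telomeric repeat-containing RNA, is known to be transcribed from the sequence next to telomeres towards the chromosome end. Sequences next to telomeres are shared between chromosomes, so the chromosome given for such a peak is uncertain, and which RNA lies behind the peaks was not tested.

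Gene bodies held most of the list. A protein-coding gene body was overlapped by 18200 knockout peaks, 76.0% (75.5 to 76.6), at 14.4 peaks per Mb of such sequence. A further 1670, 6.98% (6.66 to 7.31), lay in long noncoding genes only, at 4.57 per Mb, and 601, 2.51%, in pseudogenes and other classes only, at 13.1 per Mb. Outside all annotated genes lay 3372 peaks, 14.1% (13.6 to 14.5), at 2.51 per Mb. In the wild-type list the shares were 77.9%, 7.06%, 2.38% and 12.5%. Median fold was 7.06 in each of these classes. Peaks outside genes had the median width of 202 bp, against 212 bp in coding genes, and 46.2% of them were on the plus strand. They lay a median of 12.9 kb from the nearest gene, with 29.2% within 5 kb and 20.7% more than 100 kb away.

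At least 1 knockout peak was found in 6969 of 19875 protein-coding genes (35.1%) and in 1543 of 18010 long noncoding genes (8.57%), together 8512 of 37885 (22.5%). Among coding genes 3223 held 1 peak, 1519 held 2, and 29 held more than 20. The share of coding genes with a peak followed gene length. It was 8.76% (8.03 to 9.53) for genes up to 10 kb, 54.7% (52.9 to 56.5) for 50 to 100 kb and 74.2% (71.5 to 76.8) for 200 to 500 kb. Beyond this length it was level, at 75.6% up to 1 Mb and 75.4% above. Density ran the other way, from 21.3 peaks per Mb in the shortest class to 6.37 in genes over 1 Mb. The wild-type list went from 29.97 to 8.07. Of the 69 coding genes over 1 Mb, 17 held no knockout peak. These included CNTNAP2 and PTPRD, neuronal genes of 2304 and 2299 kb that are named after their values were seen. The wild-type list held 1 peak in CNTNAP2 and 17 in PTPRD.

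**Figure D3:**
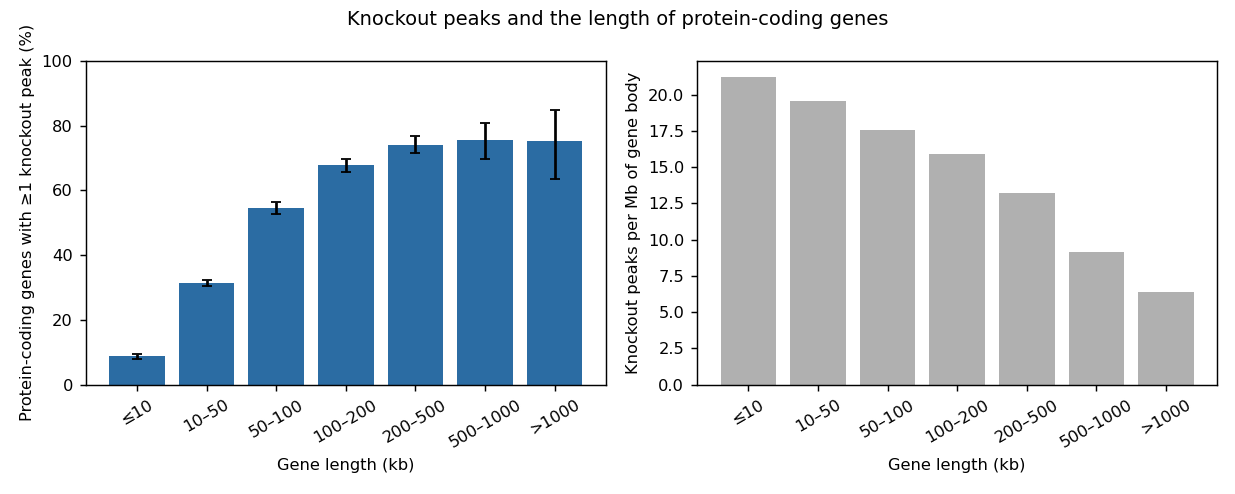
Percentage of protein-coding genes with at least 1 knockout peak (left, with 95% Clopper-Pearson intervals) and knockout peaks per Mb of gene body (right) in 7 classes of gene length in kb. The share rises from 8.76% to about 75% and is level above 200 kb, while the density falls from 21.3 to 6.37 per Mb.

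The 20 genes with most knockout peaks were long genes, 17 of them over 500 kb, and 19 were protein-coding. GPHN, which encodes gephyrin, the scaffold of inhibitory synapses and an enzyme of molybdenum cofactor synthesis, led with 61 peaks over 1227 kb. Of these, 58 were on its own strand, their folds ran from 2.51 to 19.2, and the wild-type list had 42. NLGN1, the synaptic adhesion protein neuroligin-1, held 51 peaks (wild type 48) spread along the whole gene. KCNQ5, a voltage-gated potassium channel, held 46 (wild type 38), all on its own strand. ZC3H12B, a zinc finger protein of a ribonuclease family, held 43 in 473 kb (wild type 26). GPC6, a cell-surface glypican, and FHIT, a hydrolase at a fragile site of chromosome 3, held 40 each (wild type 43 and 49), none on the opposite strand.

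Next came DNAH14, a dynein heavy chain, with 37 peaks (wild type 39), RABGAP1L, a regulator of Rab GTPases, with 35 (27) and LINGO2, a neuronal membrane protein, with 35. LINGO2 had no wild-type peak. EPHA6, an ephrin receptor, held 34 (41), and PRKG1, the cGMP-dependent kinase, 32 (36). LRP1B, a receptor of the LDL receptor family, held 30 (56) and DIAPH2, an actin-nucleating formin, also 30 (32). LRRC37A2 followed with 29 (38), 19 on its own strand and 10 on the other. It belongs to a family of near-identical copies, so its counts are uncertain. A run of 3 of its opposite-strand peaks also overlaps LOC101927060 and LRRC37A17P, so peaks counted in LRRC37A2 can belong to other genes. GALNT13, a glycosyltransferase, and CCSER1 held 27 each (37 and 24), ADGRB3, an adhesion receptor of synapses, 26 (50), and PLCB1, a phospholipase, and ROBO1, a guidance receptor of axons, 25 each (35 and 38). ROBO2 was level with these, also at 25 (41). The single noncoding gene was LOC107985962, with 26 peaks (29). The wild-type count was higher in 13 of the 20 genes and lower in 7.

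**Figure D4:**
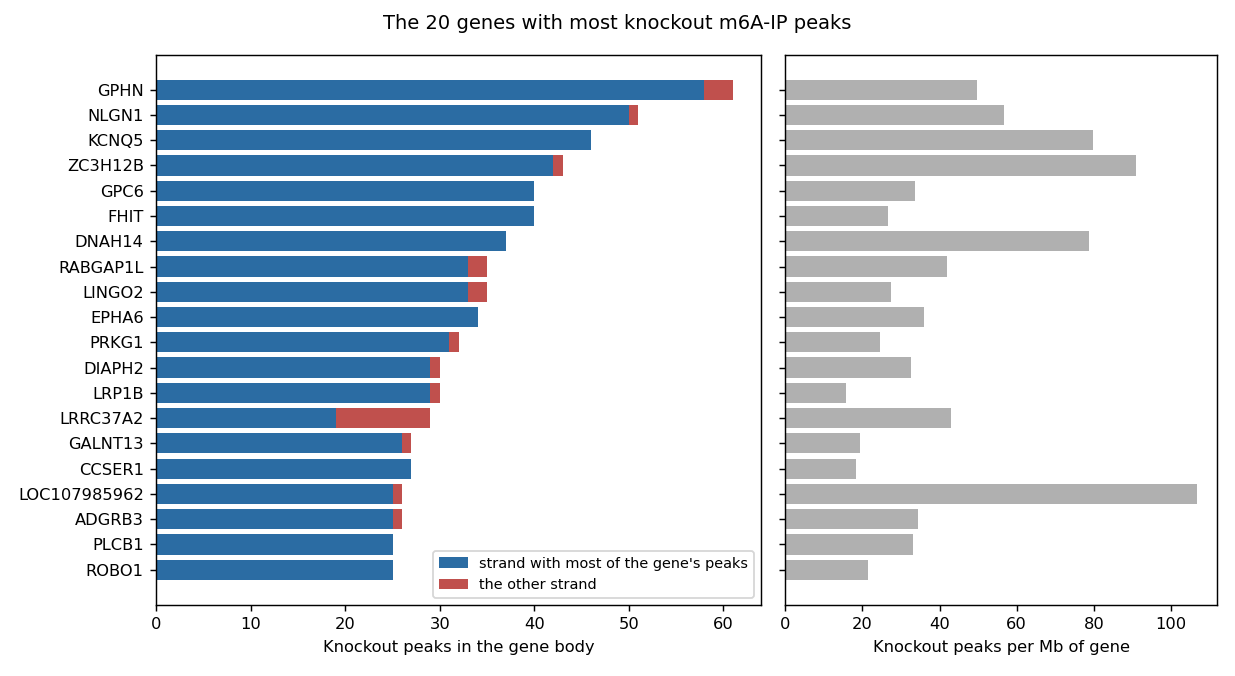
Knockout peaks in the 20 genes that hold most of them (left, in blue those on the strand with most of the gene's peaks, in red those on the other strand) and the same counts per Mb of gene body (right). The leading gene by count, GPHN, has 49.7 peaks per Mb, below KCNQ5 (79.8), ZC3H12B (90.9), DNAH14 (78.8) and LOC107985962 (107).

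Within these genes peaks were spread out rather than stacked. With each gene cut into 10 equal parts, at least 8 parts held a peak in 17 of the 20, counted on the strand with most peaks. Median gaps between neighbours ranged from 3.23 kb in LOC107985962 to 32.7 kb in LINGO2. That strand was plus in 16 of the 20 genes and held 674 of 699 peaks, 96.4%. The 20 genes together held 2.92% of the list and the 1000 genes with most peaks 35.6%.

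Ranked by density among the genes of at least 10 kb with 3 or more peaks, the order was different, and the 10 leading genes were 10.1 to 22.9 kb long with 3 to 8 peaks each. CDC37, the kinase-specific partner of HSP90, had 5 peaks at 403 per Mb, and LOC100506076, a noncoding gene, 5 at 380. GTPBP6, in the region shared by X and Y, followed with 5 at 356, LINC00342 with 7 at 351 and NPIPB12 with 8 at 350. NPIPB12 is a member of a recent multi-copy family, so its count is uncertain. U2AF1, which recognises the 3′ splice site, had 5 at 342, and BCAM, an adhesion protein, 4 at 324. SMCR8, a partner of C9orf72, had 4 at 313, INTS11, the endonuclease of the Integrator complex, 4 at 306, and TUG1, a nuclear transcript, 3 at 296. In this group strand often went against the gene. All 4 peaks in INTS11 and all 5 in GTPBP6 were on the opposite strand, as were 4 of 5 in CDC37 and 3 of 5 in U2AF1, and no other annotated gene lay under them.

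Over the whole list, strand followed the gene. Of 13682 knockout peaks in the body of exactly 1 coding gene of known strand and of no other gene, 12861 were on the gene's strand, 94.0% (93.6 to 94.4), against 94.5% in wild type. The share was 94.6% in plus-strand genes and 93.2% in minus-strand genes. In long noncoding genes it was 77.5% (74.8 to 80.0) of 1025 peaks, with 77.4% in wild type. The 821 opposite-strand peaks of coding genes had a median fold of 6.67 and a median width of 200 bp, against 7.08 and 213 bp on the gene's strand. At least 3 opposite-strand peaks were found in 59 genes, and 40 of these had none on their own strand. GRIK2, a kainate receptor subunit, held 13 on the opposite strand and 0 on its own. GLRA2, a glycine receptor subunit, held 9 and 0, leaving out a peak shared with FANCB. ADAMTS19, a secreted metalloprotease, held 9 and 3. LOC107985962 held 25 and 1, and the 25 lay at chr2:175604044-175777886 with a median step of 3444 bp from start to start. The 3 coding genes were chosen after their values were seen, and the RNA that carries such peaks was not identified here.

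Along coding genes the peaks were nearly even. With each gene body cut into 10 equal parts from 5′ to 3′, every part held between 9.42% and 10.7% of 12849 summits on the gene's strand. The first held 10.5% (9.94 to 11.01) and the last 10.7% (10.2 to 11.2), against 10.6% and 9.91% in wild type. In genes up to 50 kb both ends were fuller, with 11.3% in the first and 12.4% in the last part. Close to the gene's ends the density changed. It was 25.9 summits per Mb between 100 and 200 bp from the 5′ end and 10.9 beyond 50 kb. In the last 100 bp before the 3′ end it was 1.89 per Mb, from 3 summits, and between 300 and 400 bp from it 20.2 per Mb, from 32. Windows of 500 bp on either side of the 5′ end were taken for coding and long noncoding genes of known strand. They were touched by 2.17% (1.99 to 2.36) of knockout peaks. Genes of unknown strand were left out of this share.

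**Figure D5:**
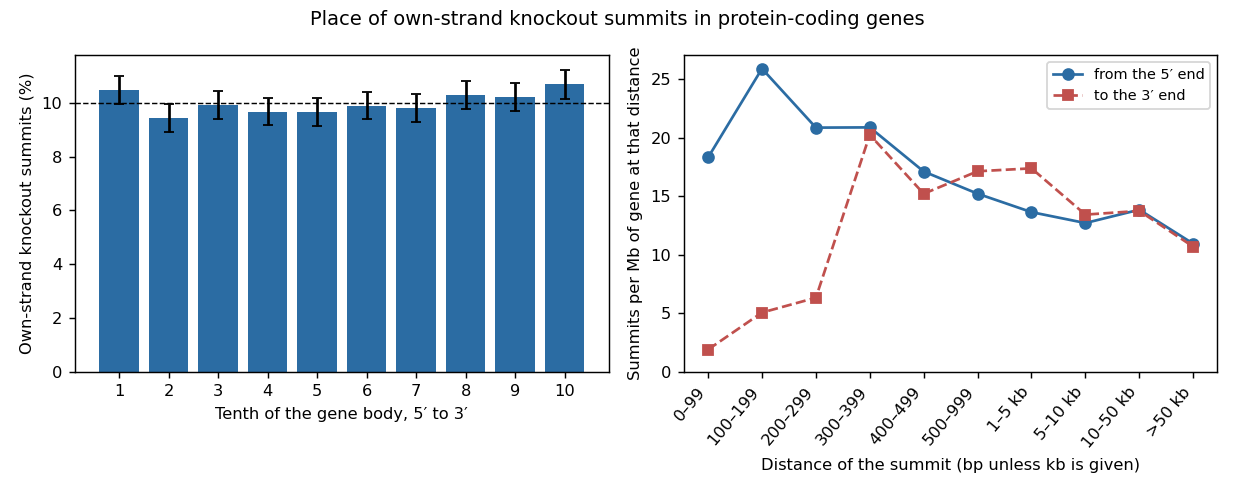
Place of 12849 knockout summits on the gene's own strand in protein-coding genes: share in each of 10 equal parts of the gene body in percent with 95% Clopper-Pearson intervals (left, dashed line at an even share of 10%), and summits per Mb of gene by distance from each end (right, blue circles from the 5′ end, red squares to the 3′ end). The parts lie between 9.42% and 10.7%, and the density is highest between 100 and 200 bp from the 5′ end and lowest in the last 100 bp of the gene.

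The peak with the highest fold was in PPM1L, a protein phosphatase (chr3:160806580-160806940, 49.6-fold, −log10 q 139). Outside all genes, peaks at chr4:190122434-190123070 and chr18:41581724-41582133 reached 48.0-fold and 36.1-fold. The genes named next by fold are those whose peak lay in exactly 1 coding or long noncoding gene. ZNF845, a zinc finger gene, reached 47.6-fold over 563 bp, PARP8, of the ADP-ribosyltransferase family, 40.4-fold, and BPTF, the large subunit of the NURF remodeller, 35.5-fold. NBPF20 (46.2-fold) and NBPF19 (37.1-fold) belong to a multi-copy family on chromosome 1, and their peaks are uncertain. MIR924HG, a noncoding microRNA host, reached 34.3-fold, WDR70 33.8-fold, and CHAF1A, a subunit of the chromatin assembly factor, 33.7-fold. TPST2, a tyrosine sulfotransferase, reached 32.4-fold with a peak on the strand opposite to it, which also overlaps the pseudogene HMGB1P10. The strongest call by −log10 q, at 332, was in SERINC2 (39.3-fold). The single demethylase gene with peaks, FTO, had one of 29.6-fold. Among the 5 widest peaks, NSUN6, an RNA cytosine methyltransferase, held 2 (1984 and 1799 bp) and LOC107985915 held 1 of 1936 bp. The widest of all, 2565 bp at chr2:97272791-97275355, lay 3.36 kb from LOC100506076, the second gene by density, and the remaining one was the chromosome 5 end peak.

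Long noncoding genes with most knockout peaks after LOC107985962 were MIR924HG (23, wild type 22), DLEU1 (21, wild type 23), DANT2 (20, wild type 21) and MIR3171HG (20, wild type 6). They are named by their rank among noncoding genes. Among pseudogenes and other classes, 426 peaks lay in transcribed pseudogenes and 185 in other pseudogenes. Their reads are hard to tell from those of the parent genes.

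The gene lists that follow were chosen with earlier results of these data known, so their shares beside those of all genes are description only. Of the m6A writer complex, 7 of 8 genes held a knockout peak, against 35.1% of all coding genes, with 20 peaks in all and a median of 2 a gene. The median over all coding genes was 0, at a similar median length (23.6 kb in the list and 24.5 kb in all). ZC3H13, a scaffold of the complex, had 7 (wild type 10), RBM15, which recruits it to RNA, 4 (2), VIRMA 3 (3) and WTAP 3 (3). CBLL1, RBM15B and METTL14, the partner of METTL3, had 1 each, as in wild type. The median fold of these peaks was 6.0 and of all peaks 7.06. Among 10 other RNA adenosine methyltransferases, METTL16, METTL4 and TRMT10C held 1 each, which is 30% of the list.

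Readers held peaks in 11 of 13 genes, 84.6%, with 29 in all (wild type 25). Their median length was 39.7 kb. The share was 31.5% over coding genes of 10 to 50 kb and 54.7% over those of 50 to 100 kb. YTHDC2 had 6, YTHDF2, which targets methylated RNA for decay, 4, IGF2BP2 4, PRRC2A 3 and YTHDF3 3, while FMR1, IGF2BP3 and YTHDF1 had 2 each. Of the demethylases, FTO had 9 peaks over its long gene (wild type 12), and ALKBH5 had 0 in both lists. Of 8 genes around S-adenosylmethionine, the methyl donor, MTR had 4 and AHCY had 1, which is 25% of the list.

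The title of the series names histone H3K9 acetylation and HAT1. Of 25 histone acetyltransferase genes and partners, 17 held a knockout peak (68%) and 21 a wild-type peak. Their median length was 47.4 kb, near the upper edge of the class of 10 to 50 kb. Over all coding genes the knockout share was 31.5% in that class, 54.7% at 50 to 100 kb and 67.7% at 100 to 200 kb. KAT6A had 11, CREBBP 6, KAT6B 6, KANSL1 5, EP300 4, HAT1 itself 3, and BRPF1 and BRPF3 2 each. The 3 peaks in HAT1 had a highest fold of 14.2, and the wild-type list had 2. In the H3K9 methylation and heterochromatin list, of similar median length, 10 of 13 held peaks (76.9%), led by ATRX (8), EHMT1 (4) and MPHOSPH8 (4), and by CBX1, EHMT2, SUV39H2 and TASOR with 2 and CBX3 with 1. In SUV39H2, a histone methyltransferase, the higher of the 2 folds was 27.5, and the wild-type list had no peak.

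All 11 DNA damage and replication checkpoint genes held peaks, 56 in all (wild type 64), at a median length of 108 kb and 48.6 per Mb. The share with a peak was 67.7% over all coding genes of 100 to 200 kb. The 11 genes were chosen with earlier results of these data known. ATR and RAD50 had 9 each, BRCA2 7, BRCA1 and FANCM 6, and ATM, FANCD2 and RIF1 4 each. Another list held 40 genes over very long loci, many but not all of them synaptic. Of these 30 held peaks, a share near the 75.4% of all coding genes over 1 Mb. Besides NLGN1, LINGO2, LRP1B and ADGRB3, the leaders of this list were IMMP2L (22), ADGRL3 (18), DLGAP1 (18, wild type 0) and AUTS2 (17). Of 597 ZNF genes 275 held peaks, 46.1% (42.0 to 50.2), at a median length of 23.03 kb, beside 31.5% of all coding genes of 10 to 50 kb. The list was made by gene name, so the coding genes beside it are not a matched set. Overlapping members share peaks, and the 593 peaks counted gene by gene were 547 different peaks. The interval treats members as separate and does not allow for this sharing. ZNF804A (17), ZNF654 (14) and ZNF407 (9) led, before ZNF292, ZNF518A, ZNF611 and ZNF638 with 8 each and ZNF398 with 7.

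Peaks were found in 7 of 86 cytosolic ribosomal protein genes (8.14%, 3.34 to 16.1), which is near the 8.76% of coding genes up to 10 kb. These were RPL31 (4), RPL36A (2), RPL10, RPL24, RPL27A, RPL37 and RPL3L. In 13 of 87 oxidative phosphorylation genes peaks were found (14.9%), at a median length of 8.92 kb. The share was 8.76% over coding genes up to 10 kb and 31.5% over those of 10 to 50 kb. NDUFA10, NDUFA9 and NDUFS4 (3 each) and NDUFA12 (2) led. Then came ATP5MF-PTCD1, COX7A2L, NDUFB2 and NDUFB7, with 1 each. Of 69 replication histone genes H1-4 had 1 peak (1.45%, 0.04 to 7.81, at a median length of 0.494 kb). Of 18 early-response genes DUSP1, JUN and KLF6 had 1 peak each (16.7%, 3.58 to 41.4, at a median length of 4.16 kb). Both stand beside 8.76% of coding genes up to 10 kb, most of which are without a peak. None of 20 spliceosomal and 7SK small nuclear RNA genes had one, and 3 of them had one in the wild-type list. Their median length of 0.14 kb is below the smallest peak width of 200 bp. The mitochondrial chromosome held 2 peaks of 1.74-fold and 2.76-fold, both in ND5 and one also in ND6.

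In a list of 19 noncoding RNAs, many of them kept on chromatin, 13 held peaks, 68.4%, against 8.57% of all long noncoding genes. Lengths were not matched: the list had a median of 32.1 kb, and long noncoding genes without a peak had 8.28 kb. TUG1 and TSIX, which held peaks, are annotated in other classes. Overlapping genes share some of the list's peaks, and 54 different peaks were involved (wild type 45). FIRRE had 13, all on its own strand, FTX 11, JPX 8, KCNQ1OT1 6, PVT1 4, SNHG14 4 (all on the opposite strand), TUG1 3 and LINC-PINT 2. Of 22 paraspeckle and splicing factor genes 12 held peaks, 54.5% beside 31.5% of coding genes of 10 to 50 kb, U2AF1 with 5, HNRNPU and SRSF11 with 3, and PSPC1, SF1, SF3B1, SRSF1 and SRSF10 with 1. Among 87 microRNA host genes, with a median length of 19.47 kb, 17 had peaks, 19.5% beside 8.57% of all long noncoding genes. After MIR924HG and MIR3171HG these were MIR2052HG (8), MIR99AHG (6), MIR4713HG and MIR646HG (5 each), and MIR4300HG and MIR550A3HG (3 each). Of 29 small nucleolar RNA hosts 4 had peaks (13.8%): SNHG14, and SNHG22, SNHG29 and SNHG31 with 1 each.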

How the data were processed

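m6A immunoprecipitated and input RNA from chromatin of wild-type and METTL3-/- HEK293T cells was sequenced (2 libraries a group). Per the submitters' processing notes, MACS2 2.2.7.1, HISAT2 2.2.1 and SAMtools 1.15.1 were used with the hg38 build, with no role or settings named. The authors deposited 1 peak list per genotype in MACS2's narrowPeak layout, whose columns hold a score, a fold enrichment and −log10 of the q-value for each peak. Per the peak names in the deposited lists, peaks were called on each strand separately. The sources used here do not give how replicates were combined or the read totals. The score column was not used.

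Starts were converted to count from 1. Peaks were assigned by an overlap of at least 1 bp, ignoring strand, to RefSeq gene bodies of GRCh38.p14, the same assembly as hg38. Rows with scaffold or alternate-locus coordinates (794) were left out. Gene strand came from RefSeq gene-start windows, which gave it for 79.7% of coding genes and 63.6% of long noncoding genes. Exons were not used. Python 3.11.15, pandas 2.3.3 and SciPy 1.17.1 were used, and the code was tested on simulated intervals. No test across genes was made, since each list is 1 combined value per genotype.

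The named genes are the 20 with most peaks, the 10 densest of at least 10 kb with 3 or more peaks, the 10 highest folds in exactly 1 coding or long noncoding gene, the 5 widest peaks, the runs with most peaks and the 5 highest folds at a gene start. METTL3, the 3 leading genes of each chromosome named and up to 8 members of each of 26 gene lists were added, of which 1 marker list is not reported here. Members and lists were chosen with earlier results of these data known. Alternatives were a −log10 q of at least 5, folds from the median up, merging of peaks within 1 kb, assignment by summit or own strand, and other distances.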

Additional observations from a re-analysis of the deposited data

How the results depend on the processing

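No value could be recomputed without a replicate, because the lists hold no values per library. No paired analysis was possible because the lists combine the replicates. Of 56 recomputed values, 33 stayed within the interval or 1.5 times of the reported one, and GPHN led the genes and chromosome 19 the chromosomes under each alternative. With −log10 q of at least 5 the plus-strand share was 56.9%, the median width 214 bp, the median gap 38238 bp, the share with a neighbour within 1 kb 12%, the coding share 77.2% and the share outside genes 13.2%. With folds from the median up, 12179 peaks in 5570 genes were left, 58.7% on the plus strand, with a median width of 221 bp, a gap of 74779 bp and 7.37% with a neighbour. GPHN then had 35 peaks, 270 listed genes held one, and 15 of the 20 leading genes were shared. Merging gave a median width of 211 bp. Own-strand assignment, which kept genes of unknown strand, moved the coding share to 71.7% and the share outside genes to 18.5%. The share near 5′ ends, of genes of known strand only, moved to 1.5% under it and to 1.85% under summit assignment. It was 1.37% within 200 bp and 3.35% within 1 kb. A neighbour lay within 200 bp for 2.93% of peaks and within 5 kb for 30.7%. Depth per library is unknown, so absence of a peak is no absence of RNA.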
